A study of Mus musculus with 6 samples.

Results

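The genes described here are transcription factors that set the identity of the intestinal epithelium, namely Cdx1, Cdx2, Isx, Hnf4a, Hnf4g, Gata4, Gata5 and Gata6, with Sox2 as their gastric counterpart. They were chosen by gene symbol and not by a cut on measured values, but earlier results of these data were known when the list was made. All 9 genes had a probe on the array, 12 probes in all out of 34967 gene probes, and all 9 passed the filter on dim probes among 16932 genes tested. RNA levels were read on single-colour CodeLink mouse arrays, 1 for each of 6 pyloric tissue pieces from embryos at E18.5, shortly before birth: 3 animals labelled Nkx3.2 knockout and 3 wildtype littermates. The parents were heterozygous for a Cre allele of Bapx1, another name of Nkx3-2, and the genotype was read from yolk sac DNA. Nkx3-2 is a homeodomain factor of the gut mesenchyme, so the altered gene and the epithelial genes described here belong to different cell layers. Each piece was cut from the distal stomach with a short margin on either side of the pyloric narrowing, and so joined gastric and duodenal epithelium with the muscular wall. Animal codes share their leading digits between a knockout and a wildtype embryo, and these digits were taken as 3 litter pairs. The headers of the array files set pair 1 apart from pairs 2 and 3 by slide series and project entry, and these sets are called batch A and batch B.

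In the developing gut a sharp epithelial boundary forms at the pylorus. Cdx2 is the homeodomain factor that specifies intestinal epithelium, and Cdx1 is its close relative in the same cells. Hnf4a and Hnf4g are nuclear receptors that drive the genes of the absorptive enterocyte, including those of fat uptake. The zinc finger factors Gata4, Gata5 and Gata6 act in endoderm, and Gata4 keeps the upper small intestine distinct from the ileum. Isx is a homeodomain factor of the intestine that limits the uptake and cleavage of carotenoids. Sox2 marks the epithelium of the oesophagus and stomach, and in the embryonic gut it is high where Cdx2 is low. In whole tissue, fewer cells of a type and less RNA per cell cannot be told apart.

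The promoters of 5 of the 9 genes were matched by symbol in a RefSeq table of build GRCm38.p6, and those of the genes with the clearest pattern below are shown with the 2 start sites of Hnf4a, which the single Hnf4a probe cannot tell apart. Each line gives the 250 bases before a start site, 5′ to 3′ on the gene's strand. Capitals mark matches to any of 6 motifs searched on both strands, CATAAA for CDX factors, CAAAGT for HNF4, AGATAA for GATA factors, ACAATG for SOX factors, GTTAAT for HNF1 and TATAAA for a TATA box. Overlapping matches were allowed.
Cdx2, chr5:147307250-147307499, minus strand: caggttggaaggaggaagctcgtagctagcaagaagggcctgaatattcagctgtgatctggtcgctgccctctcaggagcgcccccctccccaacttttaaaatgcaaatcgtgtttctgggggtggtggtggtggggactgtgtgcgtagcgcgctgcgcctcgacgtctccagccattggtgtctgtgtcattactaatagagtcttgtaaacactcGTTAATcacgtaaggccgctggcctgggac
Isx, chr8:74872924-74873173, plus strand: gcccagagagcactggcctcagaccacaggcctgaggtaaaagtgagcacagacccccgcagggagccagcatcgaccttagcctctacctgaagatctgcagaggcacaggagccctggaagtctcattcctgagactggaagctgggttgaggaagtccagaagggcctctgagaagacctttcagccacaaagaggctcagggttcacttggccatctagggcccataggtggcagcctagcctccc
Hnf4a, upstream start site, chr2:163506607-163506856, plus strand: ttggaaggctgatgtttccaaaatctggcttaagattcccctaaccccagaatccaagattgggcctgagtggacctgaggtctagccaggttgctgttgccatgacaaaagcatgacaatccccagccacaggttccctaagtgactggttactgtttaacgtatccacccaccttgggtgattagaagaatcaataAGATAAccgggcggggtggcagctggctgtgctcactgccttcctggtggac
Hnf4a, downstream start site, chr2:163546905-163547154, plus strand: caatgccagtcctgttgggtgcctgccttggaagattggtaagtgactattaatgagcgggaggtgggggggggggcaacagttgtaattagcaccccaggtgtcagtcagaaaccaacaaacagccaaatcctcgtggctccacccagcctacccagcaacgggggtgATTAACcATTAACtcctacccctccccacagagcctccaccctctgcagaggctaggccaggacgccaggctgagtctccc
The Cdx2 window held 1 match, to the HNF1 letters, which 6.43% of all 32851 promoter windows of this length held. The upstream window of Hnf4a held 1 match, to the GATA letters, found in 9.99% of all windows, and the downstream window held 2 matches to the HNF1 letters. The Isx window held none of the 6 motifs. The windows of Gata5 and Sox2, not shown, also held none, and were richer in G and C, at 70.0% and 72.0%, than the Cdx2 window at 55.2% and the median window at 52.4%. A match to 6 letters describes the sequence and does not show that a factor binds there.

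The targeted gene did not separate the groups. On the log2 normalized intensity scale, used for all values below unless stated, Nkx3-2 had a mean of 7.85 ± 0.16 for the knockout label and 7.74 ± 0.25 for the wildtype label (SD, n = 3 each). The log2 difference, always knockout minus wildtype, was 0.11 (SE 0.19, limma adjusted p = 1). The sources do not say whether the probe falls within the stretch that the Cre allele alters, so it checks nothing, and every direction below rests on the labels. Batch A was the brighter, with a median signal over local background of 203 and 206 on its arrays against 108 to 131 in batch B. Gastric and intestinal epithelium were both present on every array. The stomach peptide gene Tff1 was saturated on all 6, and the intestinal cadherin gene Cdh17 read at least 12.8 on each. Fabp1, a fatty acid carrier gene of enterocytes and hepatocytes, was also saturated on all 6. With 3 arrays a label, precision is set by the number of arrays.

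Over all 6 arrays no member passed the test between the groups. With limma and Benjamini-Hochberg adjustment over all genes 0 of 9 members had an adjusted p under 0.05, against 0 of 16932 genes (0%). At an unadjusted p under 0.05 there were 0 members, against 1.16% of all genes, or 0.921% counted as higher. All 9 differences were positive, from 0.01 for Gata4 to 0.63 for Gata6, with a median of 0.18, where the median over all genes was -0.00262 and 49.2% of genes were positive. The differences of Gata4, Gata5 and Sox2 lay within 0.05 of 0. The knockout and wildtype arrays overlapped for all 9 members, while 2.26% of all genes had every knockout array above every wildtype array and 1.11% every one below. With the litter pair as a replicate block 0 of 9 members passed and 769 genes (4.54%) had an unadjusted p under 0.05, where there were 197 without the block. With batch as a block there were again 0 members, against 5.86% of all genes.

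The litter pairs disagreed in direction. Of the 8 members with a value on every array, 7 were lower in the knockout array of pair 1 and higher in that of pairs 2 and 3, a pattern that 13.7% of all genes had. Some of these steps were close to 0, such as -0.0031 for Hnf4a and -0.02 for Isx in pair 1. Sox2, counted among the 7, lay at the level of the negative controls, and the other probes of Hnf4g and Gata6 did not show the pattern. Relative to the mean of 6 general epithelial genes, described below, 1 of these 8 members had the pattern, Cdx2. No share over all genes was taken on that relative scale. Counted singly, 7 of 9 members were lower in pair 1 (46.6% of all genes) and 8 of 8 higher in pair 3 (49.5%). No member had 1 sign in all 3 pairs, where 11.8% of genes were higher and 11.2% lower throughout. Within batch B both knockout arrays lay above both wildtype arrays for 7 of these 8 members, against 20.6% of all genes, and 22.9% had both below; the exception was Gata5, which overlapped. The median difference of the members was 0.33 within batch B and -0.09 in pair 1, against -0.01 and 0.02 over all genes. All members but Sox2 are factors of the intestinal epithelium, and all share the same arrays, so they are not independent of each other. Batch B gives 2 arrays of each label, pair 1 a single comparison with no test, and batch and litter cannot be told apart in pair 1.

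**Figure D1:**
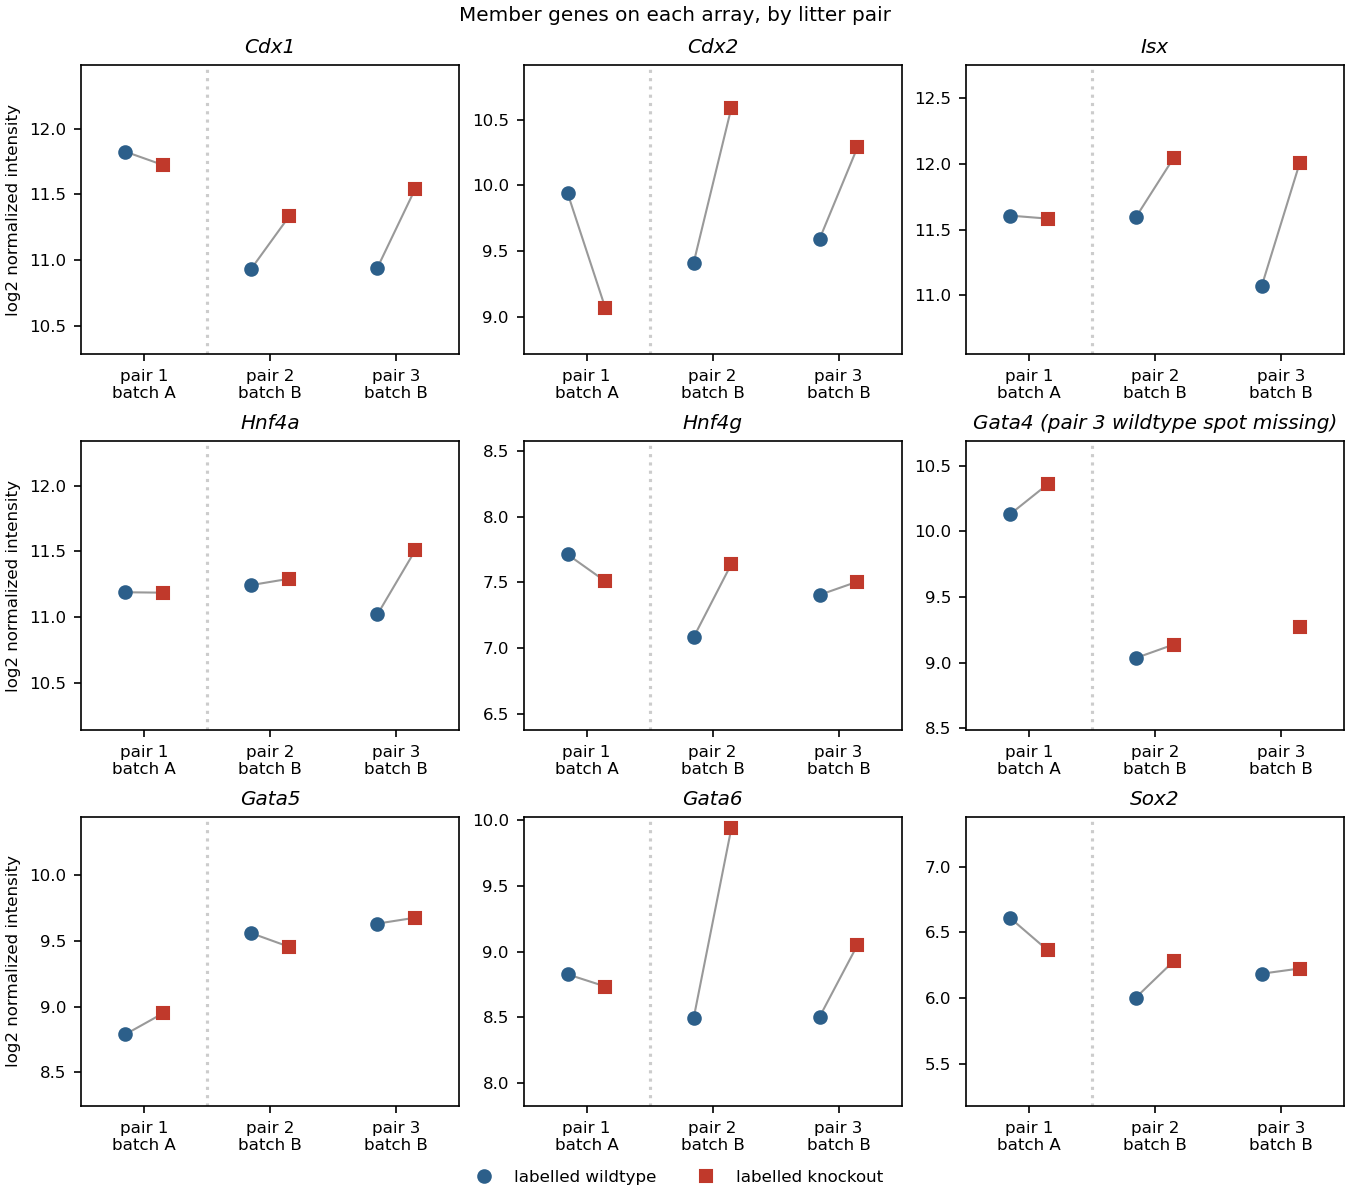
Log2 normalized intensity of the gene probe of each of the 9 genes on each array, with a grey line joining the wildtype (circle) and knockout (square) array of a litter pair and a dotted line between batches A and B; every panel spans the same range of log2 values. Lines fall in pair 1 and rise in pairs 2 and 3 for 7 genes, with the steepest rises of pair 2 in Gata6 and Cdx2 and of pair 3 in Isx, and the Gata4 panel lacks the wildtype array of pair 3.

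Cdx2, the factor that specifies intestinal epithelium, had the largest gap between the batches of the 8 members tested for it. It read 9.06, 10.59 and 10.29 in the knockout arrays of pairs 1, 2 and 3 and 9.94, 9.41 and 9.59 in the wildtype arrays. The knockout array was the lowest of all 6 in pair 1, and the knockout arrays of pairs 2 and 3 were the 2 highest. The pair differences were -0.88, 1.18 and 0.70, and the difference over all arrays was 0.33 (SE 0.40, limma adjusted p = 1). Within batch B the difference was 0.94 (SE 0.15, 95% interval 0.57 to 1.31), a 1.92-fold higher level, with an unadjusted p of 0.00072 and a limma adjusted p of 0.112. At an unadjusted p under 0.05 within batch B there were 4 members, Cdx1, Cdx2, Isx and Gata6, all higher, against 6.84% of all genes called higher in this way, and 0 members or genes passed after adjustment. In a limma interaction test pair 1 has 1 array of each label, so the spread comes from batch B alone and pair 1 is assumed to vary like it. Fitted in this way, the difference in batch B exceeded that in pair 1 by 1.82 for Cdx2 (SE 0.27, limma interaction, unadjusted p = 0.000361, adjusted p = 0.259). Over all members 0 of 8 passed that test after adjustment, against 9 of 15810 genes (0.0569%), and 2 of 8, Cdx1 and Cdx2, had an unadjusted p under 0.05, against 9.68% of all genes.

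Cdx1 followed Cdx2 with smaller steps. It read 11.72, 11.33 and 11.54 in the knockout arrays and 11.83, 10.94 and 10.94 in the wildtype arrays of pairs 1, 2 and 3. Both arrays of pair 1 were higher than all 4 of batch B, so the batches separated Cdx1 where the labels did not. The difference over all arrays was 0.30 (SE 0.28, limma adjusted p = 1), and within batch B it was 0.50 (SE 0.13, 95% interval 0.18 to 0.82, limma adjusted p = 0.227). The other probe of Cdx1 gave pair differences of -0.04, 1.23 and 0.58, in the same directions as the -0.10, 0.40 and 0.60 of the first.

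Isx carries no symbol in the array's annotation, and its probe was matched through the RIKEN clone name in the deposited expression report, which RefSeq lists as a synonym of Isx. It read 11.58, 12.05 and 12.01 in the knockout arrays and 11.61, 11.59 and 11.07 in the wildtype arrays. The knockout arrays of pairs 2 and 3 stood above the other 4, and pair 1 showed almost no difference, at -0.02. Over all arrays Isx differed by 0.45 (SE 0.22, 95% interval -0.07 to 0.98, unadjusted p = 0.0788, limma adjusted p = 1), the smallest unadjusted p of the 9 members. Within batch B it differed by 0.69 (SE 0.19, limma adjusted p = 0.235), which is 1.62-fold.
Isx represses Bco1, the gene of the enzyme that cleaves beta-carotene, and Scarb1, the gene of a receptor for lipid and carotenoid uptake. Bco1 differed by -0.07 (SE 0.26) and Scarb1 by 0.15 (SE 0.44), both with a limma adjusted p of 1. Bco1 differed by 0.08, -0.04 and -0.25 in pairs 1, 2 and 3, and Scarb1 by -0.67, 1.33 and -0.22, where Isx differed by -0.02, 0.45 and 0.93. The sign of Bco1 was opposite to that of Isx in all 3 pairs, with sizes below its SE, and that of Scarb1 only in pair 3.

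Hnf4a, the nuclear receptor of enterocytes and hepatocytes, varied less over the 6 arrays than Cdx1, Cdx2 or Isx. It read 11.19, 11.29 and 11.51 in the knockout arrays and 11.19, 11.24 and 11.02 in the wildtype arrays. Only pair 3 showed a step, of 0.49, where pairs 1 and 2 gave -0.0031 and 0.05. The difference was 0.18 (SE 0.16, 95% interval -0.20 to 0.55, limma adjusted p = 1). Hepatocytes express Hnf4a too, and liver genes moved with 1 array. The summed level of 7 tested liver genes was 14.48 in knockout replicate 1 and between 10.72 and 11.55 on the other 5. Hnf4a itself was level within pair 1, where these genes differed most. The part of liver RNA in the Hnf4a values was not tested.

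Hnf4g, the second receptor of this family and one of the intestine rather than the liver, was dim. It read 7.51, 7.64 and 7.50 in the knockout arrays and 7.71, 7.08 and 7.40 in the wildtype arrays, and wildtype replicate 2 was the lowest. The difference was 0.15 (SE 0.19, limma adjusted p = 1). Its signal exceeded the 95th percentile of the array's 320 negative control spots on 4 of 6 arrays. Its pair differences were -0.20, 0.56 and 0.10. The other probe, drawn from a cecum clone, was lower in every pair, at -0.12, -0.38 and -0.22. It thus shared the sign of the first probe only in pair 1, and it exceeded that percentile on 2 arrays. The direction of Hnf4g was therefore not settled by its probes.

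**Figure D2:**
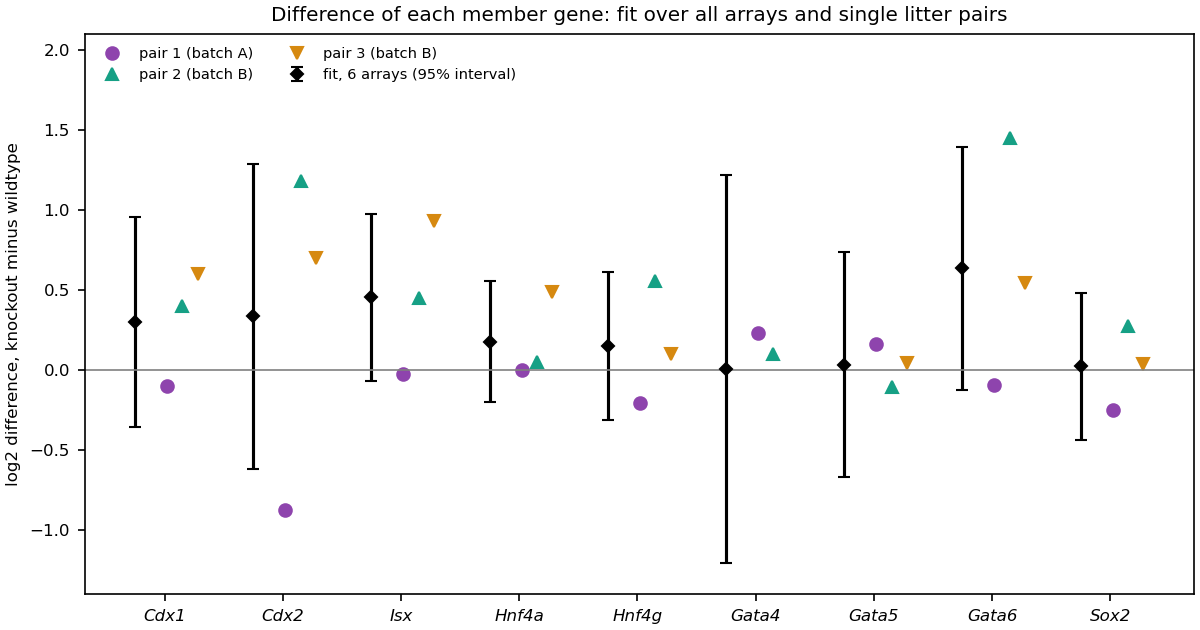
Log2 difference, knockout minus wildtype, of each of the 9 genes: black diamonds give the limma estimate over 6 arrays with its 95% interval, and coloured markers the single litter pairs. Every interval spans 0, and the marker of pair 1 lies below 0 for 7 of the 9 genes, at -0.88 for Cdx2.

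Gata6, which supports proliferation and lineage choice in gut epithelium and is also made in mesenchyme, had the largest difference of the members, 0.63 (SE 0.32, 95% interval -0.12 to 1.39, limma adjusted p = 1). It read 8.74, 9.94 and 9.05 in the knockout arrays and 8.83, 8.49 and 8.50 in the wildtype arrays. Knockout replicate 2 was the highest of the 6, and without it the difference was 0.28. The other Gata6 probe, drawn from a neonatal lung clone, did not follow: its pair differences were -0.04, 0.03 and -0.08, and its difference was -0.03 (SE 0.30). Both probes exceeded at least 97.8% of the negative controls on every array, so the higher Gata6 value rests on 1 of 2 probes.

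Gata4, the factor of the stomach and upper small intestine, differed by 0.01 (SE 0.49, limma adjusted p = 1). It read 10.36, 9.14 and 9.27 in the knockout arrays and 10.13 and 9.03 in wildtype replicates 1 and 2. The spot of wildtype replicate 3 was marked contaminated and dropped from the fit; kept, it read 9.42, and the difference was 0.06 (SE 0.41). Both arrays of pair 1 were the brightest, with a mean of 10.24 in batch A and 9.15 in batch B. The level followed the batch and not the label. The pancreas makes Gata4 too, and its enzyme gene Cpa1 also read higher in batch A, at 10.05 and 10.61 against 6.98 to 7.55 in batch B. Cela2a read 8.72 and 9.50 against 7.61 to 7.67, and Ptf1a 7.80 and 7.57 against 6.92 to 7.45. Pnlip was not higher in batch A, at 6.71 and 6.57 against 6.60 to 6.84. The summed level of these 4 tested pancreas genes was 10.82 in the knockout and 11.33 in the wildtype array of batch A. It was 9.19 to 9.27 in batch B. The part of pancreas RNA in the Gata4 values was not tested.
Gata4 is known to keep ileal genes silent in the jejunum. The bile acid transporter gene Slc10a2 differed by -0.06 (SE 0.24) and the bile acid carrier gene Fabp6 by 0.11 (SE 0.14), each with a limma adjusted p of 1. All 6 values lay between 6.96 and 7.60 for Slc10a2 and between 6.42 and 6.70 for Fabp6. No Fabp6 spot was marked near background, but its range overlapped that of Sox2, 6.004 to 6.61, which lay at the level of the negative controls. Fabp6 could therefore show little of a fall, and it was not itself compared with the negative controls.

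Gata5, a relative expressed in endoderm and heart, did not differ by more than 0.16 in any pair. It read 8.95, 9.46 and 9.68 in the knockout arrays and 8.79, 9.56 and 9.63 in the wildtype arrays, with both arrays of pair 1 the lowest. The difference was 0.03 (SE 0.30, 95% interval -0.67 to 0.74, limma adjusted p = 1), an interval that still allows a change of over 0.5 either way.

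Sox2, the gastric counterpart, was at the level of the negative controls. It read 6.36, 6.28 and 6.23 in the knockout arrays and 6.61, 6.004 and 6.19 in the wildtype arrays, a log2 difference of 0.02 (SE 0.19, limma adjusted p = 1). Its spot signal above local background was 30.5, 27.5 and 22.7 in the knockout and 51.4, 10.8 and 22.4 in the wildtype arrays. The software marked wildtype replicates 2 and 3 near background, and against the 320 negative control spots of each array the signal exceeded the 95th percentile only in wildtype replicate 1. No opposite movement of Sox2 and Cdx2 could be read at this level, since Sox2 had only a signal close to the controls. Stomach epithelium was present on the same arrays, where the gastric claudin gene Cldn18 read at least 8.92 on every array.
Markers of other cells that hold Sox2 were also measured. The enteric glia list had 6 of 6 genes tested, with a summed level of 12.16 to 12.43 in the knockout and 11.95 to 12.50 in the wildtype arrays. The squamous list of the forestomach had 5 of 7, with 10.31 to 10.48 and 10.30 to 10.75. On this list Krt4 read 9.23 to 9.45, Krt13 7.26 to 8.78, Trp63 7.73 to 8.27 and Krt5 6.71 to 7.35, all above the range of Sox2. Only the keratin gene Krt14, at 6.56 to 6.82, overlapped that range, so its values do not show that it was expressed. The part of glia or squamous epithelium in the Sox2 signal was not tested.

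**Figure D3:**
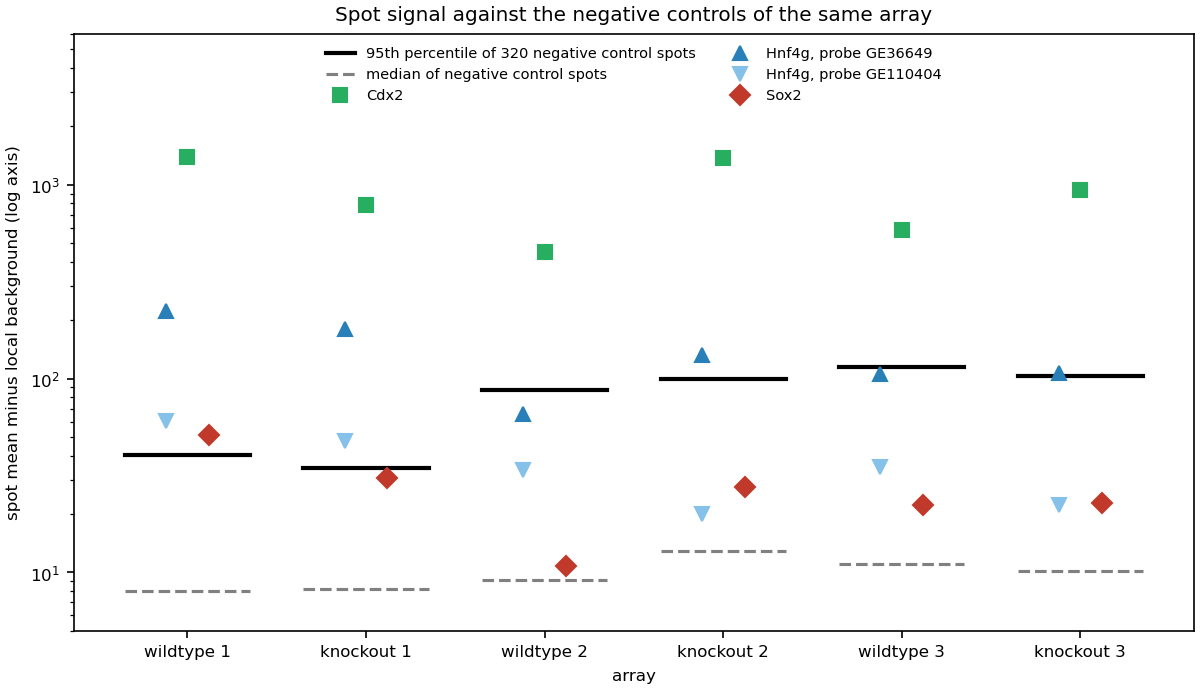
Spot mean minus local background on a log axis for Cdx2, both probes of Hnf4g and Sox2 on each array, with bars at the median (dashed) and the 95th percentile (solid) of the 320 negative control spots of that array. The Sox2 diamonds run from 10.8 to 51.4 and lie above the solid bar only in wildtype 1, while the Cdx2 squares lie above all negative control spots on every array.

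Genes known to depend on these factors were read from lists linked to Cdx and to Hnf4, whose median differences were higher in pairs 2 and 3 than in pair 1, with no test of that gap. The list linked to Cdx held 9 genes, of which 7 were tested, and 0 passed after adjustment. Its median difference was 0.63, with 6 of 7 positive, against 49.2% of all genes. At an unadjusted limma p under 0.05 there were 2, both higher, against 0.921% of all genes called higher. Alpi, the intestinal alkaline phosphatase gene, differed by 0.63 (SE 0.21) and Cdh17, an intestinal cadherin gene, by 0.63 (SE 0.23). Heph, the gene of a ferroxidase in iron export, and Gucy2c, the gene of the guanylin receptor, had differences of 0.63 (SE 0.27) and 0.64 (SE 0.36). The medians in pairs 1, 2 and 3 were 0.07, 0.85 and 0.95. Muc2, a goblet cell mucin gene, and the enterocyte keratin gene Krt20 were the 2 members that were not higher within batch B, at -0.05 and -0.11.
Of 8 genes linked to Hnf4, 6 were tested, 0 passed after adjustment, and the median difference was 0.34. Mttp, which loads lipid onto apolipoprotein B, had a difference of 0.82 (SE 0.45) and Apoa4, an apolipoprotein of chylomicrons, 0.88 (SE 0.49). The apolipoprotein genes Apoc3 and Apob had 0.33 (SE 0.23) and 0.34 (SE 0.37). The medians were -0.15 in pair 1, 0.66 in pair 2 and 0.64 in pair 3. Apoa4, Apoc3 and Fabp1 were saturated on 3, 4 and 6 arrays, which compresses their differences.

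**Figure D4:**
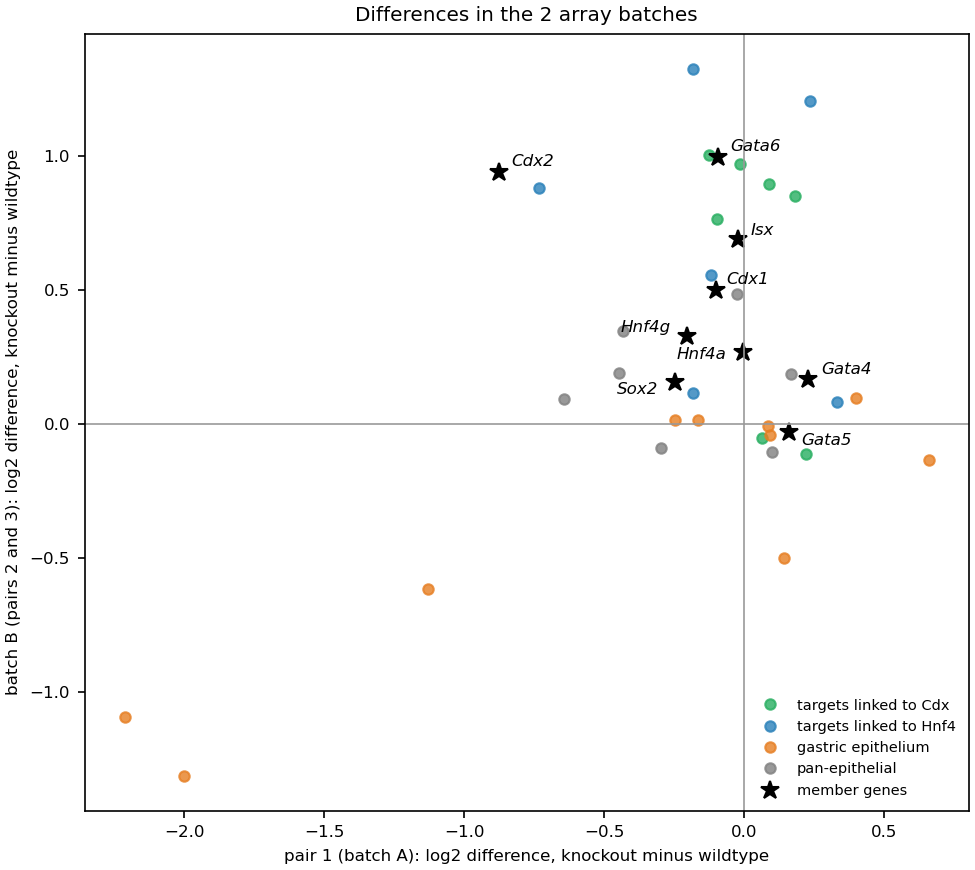
Log2 difference, knockout minus wildtype, in pair 1 (horizontal axis) and within batch B (vertical axis) for the 9 member genes (stars) and for genes of 4 lists (circles). Cdx2 lies at -0.88 and 0.94, most genes linked to Cdx or Hnf4 lie above 0.5 on the vertical axis, and Tff2, Muc6 and Gkn3 of the gastric list are below 0 on both.

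Genes found in all simple epithelia are given beside the factors, since they share the same cells. Of 8 listed 7 were tested, with 3 differences positive (49.2% of all genes) and 0 past adjustment. The summed level of the 6 with all values was 15.27 to 15.75 in the knockout and 15.50 to 15.53 in the wildtype arrays. Their mean differed by -0.21, 0.41 and -0.01 in pairs 1, 2 and 3, with the sign of Cdx2 in pairs 1 and 2 and near 0 in pair 3; their part in the members' values was not tested. Relative to that mean Cdx2 differed by -0.66, 0.77 and 0.71, Isx by 0.19, 0.04 and 0.95, Cdx1 by 0.11, -0.02 and 0.61, and Gata6 by 0.12, 1.04 and 0.56. In pair 2 Hnf4a differed by -0.37, Gata4 by -0.31, Gata5 by -0.52, Sox2 by -0.14 and Hnf4g by 0.14 on this scale. Thus 2 of 9 members were lower in pair 1, 5 of 9 in pair 2 and 0 of 8 in pair 3, with no share over all genes taken on this scale. The mean in pair 2 leaned on the keratin gene Krt8, which differed by 1.64 there. The others in that mean ran from -0.52 to 0.51 in pair 2, so the relative values of pair 2 depend on Krt8.
The gastric epithelium list had 10 of 10 genes tested, with a summed level of 16.68 to 17.06 in the knockout and 16.90 to 17.23 in the wildtype arrays. Its mean log2 level was lower in every pair, by differences of -0.44, -0.28 and -0.44, and the summed level by -0.23, -0.17 and -0.31; Tff1 and Gkn2 in that sum were saturated on 6 and 5 arrays. The fall was not shared by all genes of the list. Its median difference was -0.06, with 4 of 10 positive (49.2% of all genes), and its medians in pairs 1, 2 and 3 were -0.04, 0.05 and -0.44. The leading genes by t were Tff2, a mucous cell peptide gene, at -1.46 (SE 0.25), with 1 array saturated, and Gkn3, a gastrokine gene, at -0.79 (SE 0.29). Muc6, a mucin gene, had the most negative difference, -1.54 (SE 0.67). The part of gastric epithelium in the members' values was not tested.
Mesenchymal genes had mostly negative differences within batch B. The 7 tested gut mesenchyme genes had a median of 0.10 in pair 1 and -0.32 within batch B, where 6 of 7 were lower (52.5% of all genes). The 7 smooth muscle genes had medians of 0.13 and -0.10. Gata3, a factor of the pyloric mesenchyme, and Nkx2-5, a marker of the pyloric sphincter, led the first list with differences of -0.41 (SE 0.18) and -0.34 (SE 0.35), and Cnn1 and Mylk, smooth muscle contractile genes, the other with -0.21 (SE 0.18) and -0.25 (SE 0.30), all with a limma adjusted p of 1.
Of 6 listed striated muscle genes 4 were tested, and all 4 were lower in every pair, against 11.2% of all genes. Their medians were -0.72, -2.49 and -0.99 in pairs 1, 2 and 3 and -1.74 within batch B. Their summed level was 10.21 to 12.79 in the knockout and 12.02 to 13.81 in the wildtype arrays. Mylpf, a myosin light chain gene, and Tnnc2, the gene of fast troponin C, led by t with -1.54 (SE 0.71) and -1.78 (SE 0.88), each with a limma adjusted p of 1. The part of muscle content in the members' values was not tested.

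Other endodermal factors did not follow the intestinal ones as a group. All 20 listed were tested and 0 passed after adjustment. Of these, 5 had a positive and 15 a negative difference, with a median of -0.09, where 49.2% of all genes were positive. At an unadjusted limma p under 0.05 there was 1 in each direction, against 1.16% of all genes over both directions. Nr5a2, a nuclear receptor of gut endoderm, read 8.14, 8.41 and 8.76 in the knockout and 7.93, 7.75 and 7.76 in the wildtype arrays of pairs 1, 2 and 3, a difference of 0.63 (SE 0.20, limma adjusted p = 1). Its groups did not overlap, unlike those of any of the 9 members. Foxa3, a forkhead factor of endoderm, differed by -0.66 (SE 0.27) and was lower in all 3 pairs. Creb3l3, a lipid metabolism factor of enterocytes and hepatocytes, differed by 0.61 (SE 0.26), and Ehf, an epithelial ETS factor, by -0.25 (SE 0.15). Within batch B the list had a median of -0.09, with 8 of 20 higher, where 52.5% of all genes were lower. At an unadjusted limma p under 0.05 within batch B, 3 were higher and 4 lower, against 11.8% of all genes over both directions. The 3 were Creb3l3 at 0.86, Nr5a2 at 0.84 and Prdm1 at 0.73. Prdm1 differed by -0.45, 0.72 and 0.74 in pairs 1, 2 and 3, with the signs of Cdx2.

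The genes with profiles most like those of Cdx2, Hnf4a and Sox2 were found over the 6 arrays after the mean of each batch was removed, by the root mean square difference. For Cdx2, whose own root mean square deviation was 0.47, they were 9130016M20Rik at 0.09, Tm4sf4 at 0.10 and Epb41l3 at 0.10. For Hnf4a, with a deviation of 0.14, they were Enc1 at 0.02, Coa5 at 0.02 and Inca1 at 0.02, and for Sox2, with 0.11, they were Zranb2, F2rl1 and Nanos2, each at 0.02. Gata4 lacked 1 array and was not compared. The 6 arrays and their normalization are shared by all genes compared, and such a match is a description.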

How the data were processed

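Total RNA of the pyloric region of 6 embryos was measured, 1 embryo an array. The authors' scanner exports, CodeLink output per the file headers, give each spot's mean intensity and its median local background, not normalized, beside an intensity that the values show to be divided by the array median. The deposited series table holds normalized intensity with column medians between 0.997 and 1.02; its scale is linear, and its further steps are not stated.

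Background correction was limma's normexp (offset 50), followed by quantile normalization of the 34967 gene probes and log2. The offset gives even an unexpressed gene a positive log2 level, so a summed level does not by itself show expression. Spots marked masked, irregular or contaminated, 0.418% to 3.34% of an array, were set missing. A probe was tested if not near background on at least 3 of 6 arrays and present on at least 2 of each group, and the brightest passing probe stood for a gene. Symbols came from the platform annotation, updated by gene ID through RefSeq for 21487 probes, then from RefSeq accessions (497) or RIKEN clone names (293) in the expression report; 681 probes with several symbols were not named. Groups were compared with limma 3.58.1 in R 4.3.3 without a block, and the p-values adjusted over all genes; simulated data were used to test the fit. The samples are separate embryos.

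Embryos that share the leading digits of their codes were taken as litter mates. Their deviations from the group means correlated across 15810 genes at 0.784, 0.41 and 0.578 in pairs 1, 2 and 3. Within batch B arrays of different leading digits correlated at 0.533 and 0.634, much like those that share them. These correlations therefore do not bear out the pairing within batch B, on which the single differences of pairs 2 and 3 rest. In pair 1 litter and batch cannot be told apart. The members, lists and tests were chosen with earlier results of these data known. Named were all 9 members, Nkx3-2, the listed genes that Isx or Gata4 represses, and the 3 closest profiles of Cdx2, Hnf4a and Sox2. In the lists of factors and targets the 4 genes of largest absolute t-statistic were named. In the gastric, gut mesenchyme, smooth muscle and striated muscle lists the top 2 were named. For the pan-epithelial, squamous, glia, liver and pancreas lists this rule was not followed. Tff1, Gkn2, Fabp1, Cldn18, Cpa1, Muc2, Krt20, Muc6 and Krt8 were named after their values were seen. So were Cela2a, Ptf1a, Pnlip, Krt4, Krt5, Krt13, Krt14, Trp63 and Prdm1.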

Additional observations from a re-analysis of the deposited data

How the results depend on the processing

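Of 9 members, 0 passed the adjusted threshold with the litter pair as a replicate block, with batch as a block, within batch B, with median scaling, a normexp offset of 10 or no background correction, on the authors' normalized intensity in either deposited form, without the filter on dim probes, with array weights, with flagged spots kept (chosen after seeing the data), or without any 1 array; the count over all genes was 0 in each, and the block on litter pairs changed no call. Genes at an unadjusted p under 0.05 numbered 197, and 769 with litter pairs, 993 with batch and 1999 within batch B, 1764 with array weights and 64 to 1107 without 1 array. The test for a dependence on batch called 0 members also with median scaling or the series table.

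Some directions turned, and the cause was not tested. Gata5 was -0.030 within batch B, -0.0029 with array weights and -0.029 relative to the epithelial genes; Sox2 was -0.038 with median scaling and -0.039 relative to the epithelial genes; Gata4 was -0.11 relative to them. The other probes gave -0.028 for Gata6 and -0.24 for Hnf4g. Without 1 array the differences ran from -0.54 to 0.55 for Gata4, -0.24 to 0.24 for Gata5, -0.11 to 0.20 for Sox2 and -0.0072 to 0.31 for Hnf4g. Cdx2 ran from 0.03 without knockout replicate 2 to 0.79 without knockout replicate 1, Isx from 0.28 to 0.60, Cdx1 from 0.15 to 0.60, Gata6 from 0.28 to 0.89 and Hnf4a from 0.09 to 0.25, with no change of sign. Signals near the negative controls limit Sox2 and Hnf4g.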
